A study of Homo sapiens with 6 samples.

Results

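The genes described here are the angiomotin family, the Hippo effectors YAP1 and WWTR1 (the gene of TAZ), the kinases LATS1 and LATS2, and CCN1, CCN2 and ANKRD1, which are read as output of YAP-driven transcription. They are 10 genes of the 62703 in the deposited table, and they were chosen by name with results of this comparison already known, so their values are a description and no test is read for them. RNA was sequenced from PANC-1, an established human cell line of pancreatic ductal adenocarcinoma. The 3 WT samples (DKK1-SE+/+) carry the intact super-enhancer of DKK1, and the 3 DKK1-SE-KO samples (DKK1-SE-/-) carry a homozygous CRISPR/Cas9 deletion of its enhancer e1. Per the study's methods the knockout line was isolated by limiting dilution, so the 3 knockout samples come from a clone, and a difference between the groups can be a property of that clone as well as of the deletion. The labels call the 3 samples of each group biological replicates and say no more of how they were grown, so any p-value measures the spread between these samples.

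In the Hippo pathway the kinases MST1 and MST2 activate LATS1 and LATS2, which phosphorylate YAP and TAZ and keep them out of the nucleus. In the nucleus YAP and TAZ bind TEAD transcription factors and raise the transcription of genes such as CCN1, CCN2 and ANKRD1. Angiomotins are scaffold proteins of cell junctions and actin that bind YAP and TAZ directly and can also promote LATS activity, and YAP is known as a driver of growth in pancreatic cancer.

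Total expected counts ranged from 16475810 in WT replicate 2 to 21822314 in WT replicate 1, and from 17359835 to 20098086 in the knockout samples. DKK1, the target gene of the super-enhancer, had 229, 246 and 199 TPM (a level scaled for transcript length and library depth) in WT replicates 1, 2 and 3 and 66.8, 79.8 and 82.7 TPM in the knockout replicates. Its log2 fold change was -1.45 ± 0.11 (SE, 3 samples against 3), with an adjusted p of 6.16e-06 in edgeR's quasi-likelihood test, and DKK1 was lower in each knockout sample than in each WT sample.

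The knockout libraries differed from each other in how counts depended on the GC content of the transcript. Relative to the WT mean, the log2 level across genes rose by 0.45 per 10 percentage points of GC in knockout replicate 1, by 0.28 in replicate 2 and by 0.064 in replicate 3, while the WT libraries lay at -0.031, -0.030 and 0.061. Over 15167 genes the log2 fold change and GC content had a Spearman correlation of 0.40, a description across genes that share their libraries. Transcripts poor in GC therefore tended to have fewer counts in knockout replicate 1 than in knockout replicate 3. A GC-content offset for every library was added as an alternative chosen after seeing the data, and its value is given below where it ended the call, or moved the value by over 1.5 times, of a gene named here among the 10 genes, the lists or the flanking genes, and for some further genes. The libraries also differed between the groups in other ways: mitochondrial genes took 5.48%, 6.38% and 6.28% of counts in WT and 8.58%, 7.31% and 7.4% in the knockout, and the 10 most abundant genes took 12.1% to 13.2% in WT and 15.1% to 18% in the knockout. The part of these shares in the results below was not tested.

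Markers of an epithelial line were present in every sample. The 6 epithelial markers summed to 1901, 1954 and 1993 TPM in WT and to 3192, 3128 and 2708 TPM in the knockout, and KRT8 was the most abundant of them. They did not share a direction: KRT8, KRT18 and KRT19 were higher in edgeR's test at an adjusted p under 0.05, KRT7 did not pass, and EPCAM and SOX9 were lower, with log2 fold changes of -0.67 ± 0.23 (SE) and -0.39 ± 0.12 (SE). Markers of acinar, endocrine, fibroblast and endothelial cells summed to at most 1.22 TPM in any sample. Of the immune markers, PTPRC and CD3E were at or near 0, and CD68, a lysosomal protein that is not restricted to immune cells, had 40.9 to 46.5 TPM in WT and 64.8 to 67.9 TPM in the knockout. The part of the epithelial marker and CD68 differences in the results below was not tested. In bulk RNA, fewer cells expressing a gene and less of its RNA per cell cannot be told apart.

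All 10 genes passed the filter on low counts. AMOT, AMOTL1 and LATS2 were higher in the knockout, LATS1 and WWTR1 were lower, and the log2 fold changes of the remaining 5 lay between -0.32 and 0.24. At an adjusted p under 0.05 this makes 3 genes higher and 2 lower, beside 19.8% of the 15179 tested genes called higher and 19.5% called lower. The count moved between fits: LATS2 was in it in 11 of 15 alternative fits, and not without WT replicate 1 or 2 or on either TPM scale, AMOTL2 entered it as lower with the GC-content offset, with and without a replicate block, and YAP1 and ANKRD1 entered it as lower without knockout replicate 3. By a second rule, an unadjusted p under 0.05 and a log2 difference of 1.2 or more either way, AMOT alone passed, beside 4.96% of tested genes called higher and 3.7% called lower. The TPM of the groups did not overlap for 6 of the 10, beside 44.2% of all tested genes. Because the genes were chosen with this comparison known, nothing is read from these counts.

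**Figure D1:**
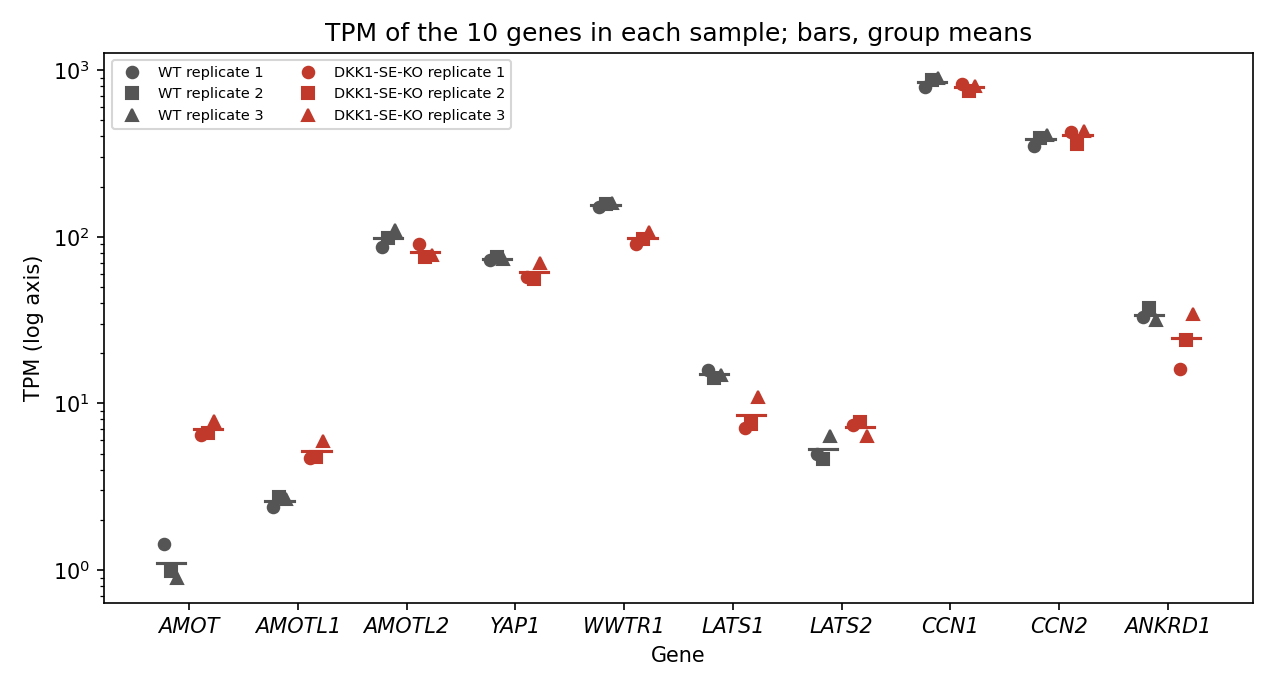
TPM (vertical log axis) of the 10 genes in the 3 WT samples (grey) and the 3 DKK1-SE-KO samples (red), with marker shapes for the replicates and horizontal bars for group means. AMOT moves from 0.90 to 1.43 TPM in WT to 6.42 to 7.84 TPM in the knockout, CCN1 and CCN2 overlap between the groups in TPM, and the ANKRD1 knockout samples spread from 16.1 to 34.4 TPM.

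AMOT encodes angiomotin, the founding member of its family, and showed the greatest difference of the 10 genes. It had 1.43, 0.99 and 0.90 TPM in WT replicates 1, 2 and 3 and 6.42, 6.64 and 7.84 TPM in the knockout replicates, from 88 to 111 counts and from 620 to 771 counts. All 3 knockout samples were above all 3 WT samples, and the 3 knockout values lay close together. The log2 fold change was 3.0 ± 0.14 (SE), about 7.97-fold, with a 95% interval from 2.69 to 3.30. AMOT lies at chrX:112774503-112840831 (hg38, minus strand). The gene-level counts do not separate the long AMOT protein form, which carries the YAP-binding region, from the short form, which lacks it.

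AMOTL1, a close relative that also binds YAP, had 2.38, 2.75 and 2.68 TPM in WT and 4.73, 4.76 and 5.95 TPM in the knockout. Again the groups did not overlap, and the log2 fold change was 1.01 ± 0.12 (SE), with a 95% interval from 0.75 to 1.28. AMOTL2, the third member, which is itself known as a YAP target, had far more transcript than the others. Its TPM was 86.7, 97.9 and 110 in WT and 90.4, 75.8 and 77.7 in the knockout. The AMOTL2 groups overlapped, because knockout replicate 1 lay above WT replicate 1, and the log2 fold change of -0.084 ± 0.11 (SE) was smaller than its error. With the GC-content offset the AMOTL2 value was -0.33; its transcript has 56.3% GC. After that offset the knockout samples lay at -0.3, -0.47 and -0.23 of the WT mean on the log2 scale, all below the WT samples at -0.13 to 0.091, so the AMOTL2 overlap depends on the treatment of GC. With 1 sample left out the AMOTL2 value ranged from -0.18 without knockout replicate 1 or WT replicate 1 to -0.039 without knockout replicate 2.

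Because AMOTL2 supplies most angiomotin transcript, the sum over the family overlapped between the groups while its make-up differed. The 3 genes together had 90.5, 102 and 114 TPM in WT and 102, 87.2 and 91.5 TPM in the knockout, ranges that overlap. AMOT made up 1.58%, 0.97% and 0.79% of that sum in WT and 6.32%, 7.62% and 8.57% in the knockout. AMOT and AMOTL1 together went from a mean of 3.68% ± 0.53 (SD, n = 3) to 13% ± 2.04 (SD, n = 3), so AMOTL2 remained the most abundant angiomotin transcript in every sample.

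YAP1 had 72.5, 75.5 and 73.5 TPM in WT and 57.4, 56.0 and 69.9 TPM in the knockout. The WT samples were nearly equal and all above the knockout samples, of which replicate 3 came within a few TPM of WT. On the count scale the log2 fold change was -0.18 ± 0.10 (SE), with a 95% interval from -0.40 to 0.042 that includes 0, and it was -0.27 without knockout replicate 3. With the GC-content offset the YAP1 value was -0.041, and the 3 knockout samples then lay at 0.009, -0.095 and -0.038 of the WT mean on the log2 scale.

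WWTR1, which encodes TAZ, was the more abundant of the pair and differed more. It had 150, 157 and 159 TPM in WT and 90.8, 96.7 and 106 TPM in the knockout. No knockout sample came near the WT range, and the log2 fold change was -0.81 ± 0.10 (SE), a knockout level of 0.57 times WT, with a 95% interval from -1.03 to -0.58. With the GC-content offset it was -0.60. The ratio of WWTR1 to YAP1 TPM was 2.07, 2.08 and 2.16 in WT and 1.58, 1.73 and 1.52 in the knockout, so WWTR1 stayed above YAP1 but by less. YAP1 and WWTR1 together had a mean of 229 ± 5.5 TPM (SD, n = 3) in WT and 159 ± 15.1 TPM (SD, n = 3) in the knockout.

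The LATS kinases differed in opposite directions. LATS1 had 15.9, 14.3 and 14.8 TPM in WT and 7.09, 7.47 and 10.9 TPM in the knockout, and every knockout sample lay below every WT sample. Its log2 fold change was -0.80 ± 0.14 (SE), with a 95% interval from -1.10 to -0.51. The LATS1 transcript has 39.0% GC, the lowest of the 10, and with the GC-content offset the value was -0.44. After that offset the knockout samples lay at -0.45, -0.51 and -0.38 of the WT mean on the log2 scale, closer together than the -1.06, -0.86 and -0.53 before it.

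LATS2, which is also transcribed in response to YAP, had 5.00, 4.65 and 6.34 TPM in WT and 7.42, 7.73 and 6.40 TPM in the knockout. WT replicate 3 and knockout replicate 3 nearly touched. The LATS2 log2 fold change was 0.49 ± 0.13 (SE), with a 95% interval from 0.20 to 0.77, and 0.31 with the GC-content offset. Without WT replicate 1 it was 0.37 and without WT replicate 3 it was 0.57. LATS1 exceeded LATS2 by 3.18, 3.06 and 2.34 times in TPM in WT, whereas the ratio was 0.96, 0.97 and 1.70 in the knockout. After the GC-content offset, LATS1 lay at -0.45, -0.51 and -0.38 of the WT mean on the log2 scale in the knockout replicates. LATS2 then lay at 0.30, 0.24 and 0.39. LATS1 was thus still lower against LATS2 in each, but the spread of the ratio between knockout replicates depends on the treatment of GC. The summed TPM of the 2 kinases was 20.3 ± 1.23 (SD, n = 3) in WT and 15.7 ± 1.45 (SD, n = 3) in the knockout. Both sums were thus lower in the knockout, although LATS2 itself was not, and the ratio of YAP1 plus WWTR1 to LATS1 plus LATS2 was 10.7, 12.3 and 11 in WT and 10.2, 10 and 10.2 in the knockout.

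**Figure D2:**
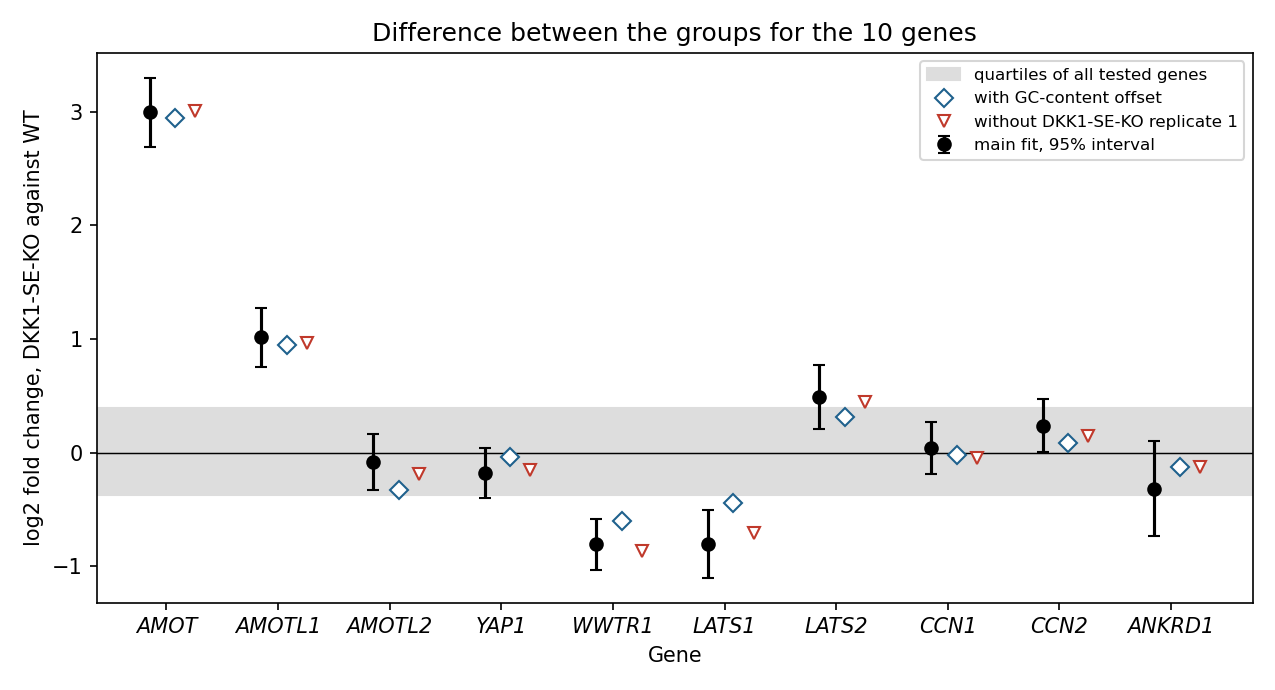
Log2 fold change of DKK1-SE-KO against WT (vertical axis) for the 10 genes, with 95% intervals (black), with the GC-content offset (blue diamonds) and without knockout replicate 1 (red triangles); the grey band runs between the quartiles of all tested genes, from -0.37 to 0.40. AMOT, AMOTL1 and LATS2 lie above the band and WWTR1 and LATS1 below it, although LATS2 moves to 0.31 and LATS1 to -0.44 with the offset.

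CCN1 and CCN2 encode secreted matricellular proteins and are among the most widely used readouts of YAP activity. CCN1 was the most abundant of the 10 genes, at 789, 870 and 897 TPM in WT and 826, 748 and 800 TPM in the knockout. The groups overlapped, and the log2 fold change was 0.041 ± 0.10 (SE), with a 95% interval from -0.19 to 0.27, and -0.019 with the GC-content offset. The sign of the CCN1 value was positive in 8 of 15 alternative fits and negative in the others.

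CCN2 had 352, 389 and 409 TPM in WT and 425, 362 and 431 TPM in the knockout. In TPM these groups overlapped through knockout replicate 2, which fell between WT replicates 1 and 2. On TMM-scaled counts (CPM) they did not, at 569, 618.2 and 650 in WT and 793, 669 and 704 in the knockout. On the count scale the CCN2 log2 fold change was 0.24 ± 0.11 (SE), with a 95% interval from 0.0044 to 0.47, and 0.087 with the GC-content offset. Single libraries moved it, to 0.15 without knockout replicate 1 and to 0.16 without WT replicate 1. The CCN1 to CCN2 ratio in TPM was 2.24, 2.24 and 2.19 in WT and 1.94, 2.07 and 1.86 in the knockout, lower in each knockout sample than in WT. This did not hold in every sample after the GC-content offset, where relative to the WT mean on the log2 scale CCN1 lay at 0.126, -0.036 and -0.163 and CCN2 at 0.172, -0.048 and 0.127 in the knockout replicates, so that CCN2 was not the higher of the pair in replicate 2.

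ANKRD1, a nuclear ankyrin-repeat protein induced by YAP, varied most within the knockout. Its TPM was 33.0, 37.1 and 31.8 in WT and 16.1, 23.9 and 34.4 in the knockout. Replicate 1 was the lowest knockout sample, and replicate 3 lay inside the WT range. The log2 fold change was -0.32 ± 0.19 (SE), with a 95% interval from -0.74 to 0.10. This value rests on single libraries: it was -0.13 without knockout replicate 1 and -0.57 without knockout replicate 3. The ANKRD1 transcript has 42.1% GC, and with the offset the value was -0.13 and the knockout samples lay at -0.49, -0.085 and 0.11 of the WT mean on the log2 scale, so knockout replicate 1 was still the lowest.

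**Figure D3:**
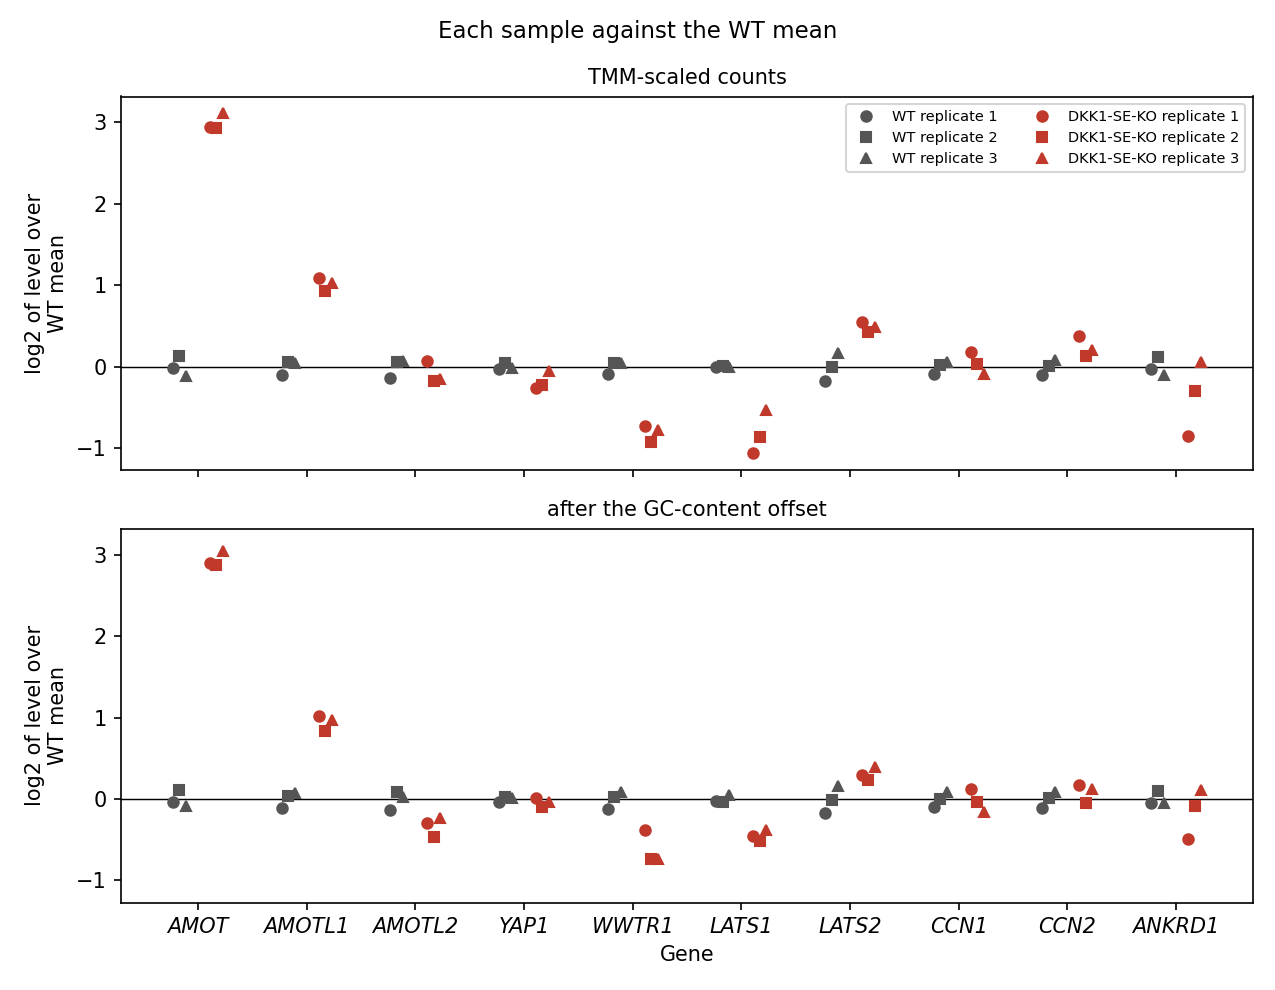
Level of each gene in each sample relative to the WT mean (vertical axis, log2) from TMM-scaled counts (top) and after the GC-content offset (bottom); grey markers are WT and red markers DKK1-SE-KO samples. The LATS1 knockout samples draw together after the offset, from -1.06, -0.86 and -0.53 to -0.45, -0.51 and -0.38, while the AMOT knockout samples lie between 2.93 and 3.11 before it and between 2.87 and 3.04 after it.

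Bases upstream of annotated promoter starts were searched on both strands for GGAATG, the core of the TEAD motif, and TGANTCA, the AP1 motif. The TEAD motif was used because TEAD factors carry YAP and TAZ to DNA. RefSeq promoter entries (GRCh38.p14) were matched by symbol for 9 of the 10 genes, in 12 windows of 250 bases, and CCN1 had no entry. Some entries are internal starts, with windows wholly inside the gene as placed by GENCODE v44. These are the AMOTL1 window, both WWTR1 windows, the AMOTL2 window with the TEAD letters and the LATS1 window without the AP1 letters. The TEAD letters were found in windows of 4 genes, AMOTL2, YAP1, CCN2 and ANKRD1. They were found in 11.9% of 27305 promoters of this length, a single entry for each gene. The AP1 letters were found in windows of LATS1 and ANKRD1 and in 6.6% of those promoters. The AMOTL2 and LATS1 matches lie in the later-listed window of the gene, whereas these shares count only the entry listed first. CCN2 held the TEAD letters 3 times and ANKRD1 held them at 2 places, whereas 0.96% of those promoters held 2 or more. The windows of CCN2 and ANKRD1, the target genes, and of AMOT, the gene that differed most, are shown 5′ to 3′ on the minus strand of the genome, on which all 3 are transcribed, with the TEAD letters in capitals. They are chr6:131951373-131951622 for CCN2, chr10:90921088-90921337 for ANKRD1 and chrX:112840832-112841081 for AMOT, each ending at the base before the annotated start.
CCN2: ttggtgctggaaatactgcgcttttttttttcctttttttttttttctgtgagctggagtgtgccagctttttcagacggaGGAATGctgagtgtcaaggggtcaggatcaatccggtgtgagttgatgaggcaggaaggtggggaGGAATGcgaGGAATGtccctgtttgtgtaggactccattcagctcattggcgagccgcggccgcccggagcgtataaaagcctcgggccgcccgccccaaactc
ANKRD1: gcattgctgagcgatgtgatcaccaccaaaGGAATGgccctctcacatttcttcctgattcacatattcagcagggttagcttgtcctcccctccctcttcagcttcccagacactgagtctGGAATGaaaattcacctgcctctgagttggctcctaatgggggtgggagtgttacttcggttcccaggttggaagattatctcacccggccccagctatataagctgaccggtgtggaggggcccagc
AMOT: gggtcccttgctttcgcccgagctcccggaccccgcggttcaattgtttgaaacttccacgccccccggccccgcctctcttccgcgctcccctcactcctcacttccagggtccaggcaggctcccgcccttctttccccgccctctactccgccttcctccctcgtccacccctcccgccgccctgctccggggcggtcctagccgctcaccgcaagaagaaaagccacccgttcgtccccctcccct
In CCN2 the matches begin 169, 104 and 95 bases before the start, the later pair only a few bases apart. In ANKRD1 they begin 220 and 128 bases before it, with the AP1 letters between them at 195 bases. The AMOT window holds no match, which says only that these letters are not in it. CCN2 and ANKRD1 thus share repeated TEAD letters, but both were chosen as known YAP targets, so this is not read as a result. Their log2 fold changes were 0.24 and -0.32, or 0.087 and -0.13 with the GC-content offset. A match is a description of sequence and not a measured binding site.

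**Figure D4:**
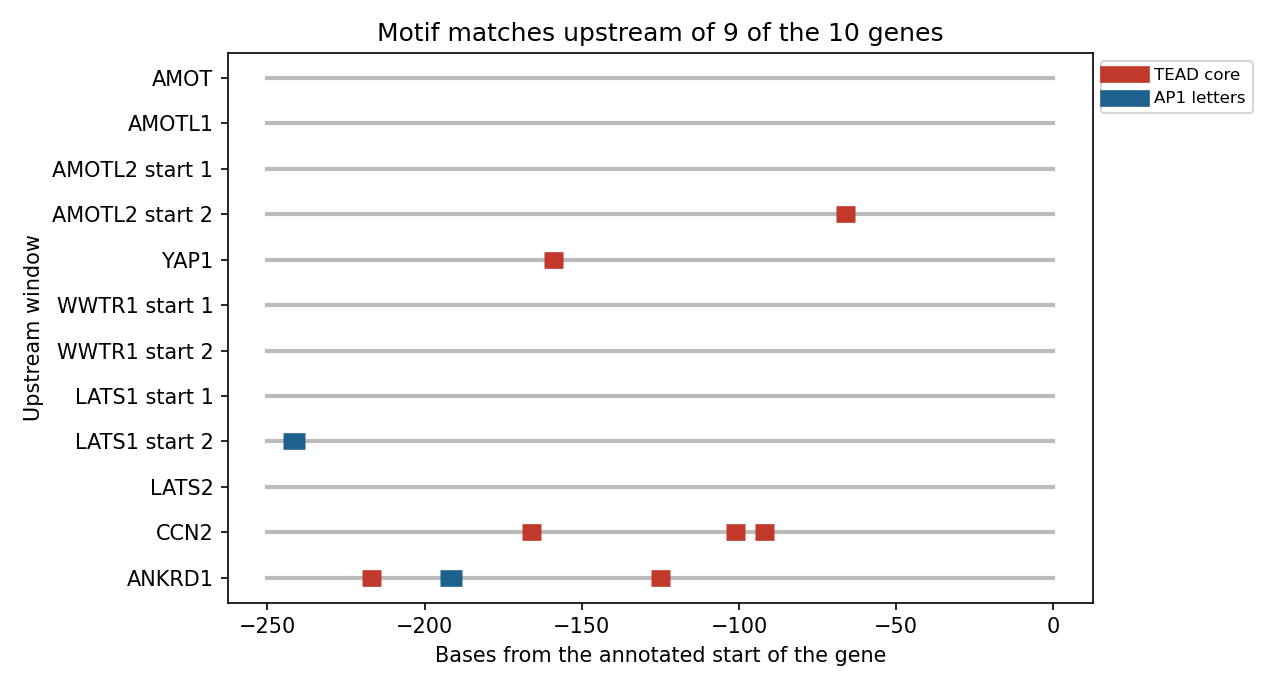
Positions of the TEAD letters (red) and AP1 letters (blue) in the 12 windows of 9 genes, in bases before the start of each promoter entry (horizontal axis). The AMOTL1 window, both WWTR1 windows and a window each of AMOTL2 and LATS1 lie inside the gene. CCN2 has 3 TEAD matches and ANKRD1 has 2 with an AP1 match between them, and most other windows are empty.

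The transcripts with the profile nearest to each of 4 genes were found over the 6 samples among 13135 genes with a mean TPM of at least 1, by root mean square distance of centred log2(TPM + 1) values. For AMOT they were the non-coding gene ENSG00000291130 (distance 0.060), IGF2, a fetal growth factor (0.12), and KRT15, a keratin of basal epithelial cells (0.12). IGF2 had 11.8 to 12.6 TPM in WT and 50.5 to 61.4 TPM in the knockout, levels above those of AMOT in both groups. On counts the log2 fold changes were 2.83 for ENSG00000291130, 2.30 for IGF2 and 2.10 for KRT15, against 3.0 for AMOT. The scale of the distances understates the change of low genes such as AMOT, so these matches depend in part on it. CCN1 lay nearest to USP36, KDELR2 and NFYC, at distances of 0.018 to 0.026, and CCN2 nearest to HOXC10, POLR2A and SUN2, at 0.017 to 0.022. ANKRD1 lay nearest to IBTK, OSBPL9 and THUMPD3, at 0.037 to 0.046. IBTK had 10.6, 16.1 and 22.6 TPM in the knockout, the same order of replicates as ANKRD1.

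The 10 genes lie on 6 autosomes and the X chromosome. ANKRD1, at chr10:90912096-90921087, is the only one on chromosome 10, which carries the DKK1 super-enhancer many megabases away from it. Of the 20 tested genes that flank them, 10 were lower and 1 was higher at an adjusted p under 0.05, beside 19.5% and 19.8% of all tested genes; with the GC-content offset 9 were lower and 1 higher. PCGF5, a Polycomb subunit 242 kb from ANKRD1, had 12.9 TPM in WT and 3.81 TPM in the knockout, with a log2 fold change of -2.02 ± 0.17 (SE), or -1.58 with the offset. MOXD1, 345 kb from CCN2, was the one that rose, from 0.19 to 0.83 TPM. Neither flank of AMOT was higher in the knockout, but ALG13, an enzyme of protein glycosylation, lies as far as 1014 kb away. It went from 73.1 to 38.8 TPM (log2 fold change -0.72 ± 0.16, SE). The other flank, ENSG00000286072, 39.7 kb away, had only 1.16 TPM in WT and 0.60 TPM in the knockout and did not pass. On both sides of LATS1, KATNA1 and NUP43 were lower as LATS1 was, with log2 fold changes of -0.63 and -0.57, or -0.54 and -0.32 with the offset. Next to WWTR1 the gene COMMD2, 1.8 kb away, had -0.61, but -0.14 with the offset, where it no longer passed. Next to CCN1, whose level overlapped between the groups, DDAH1 and ZNHIT6 were lower, at -0.57 and -1.19, or -0.35 and -0.81 with the offset. The members overlap 13 annotated genes, 9 of them on the opposite strand, and 3 of these passed the filter, with mean levels of 1.07 to 2.22 TPM in either group. Whether the counting used the strand is not given in the sources used here, so reads of YAP1, WWTR1 and CCN2 and of these antisense genes may not have been told apart.

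Of 29 other Hippo genes, the kinases, scaffolds and upstream regulators around LATS, all were tested, and 4 were higher and 11 lower in edgeR's test at an adjusted p under 0.05, beside 19.8% of all tested genes called higher and 19.5% called lower. The count of higher genes was 2 without WT replicate 2 and 7 with the GC-content offset, and limma called 0 on either TPM scale, where 1 had an unadjusted p under 0.05 (DESeq2 called 4); the count of lower genes was 7 without WT replicate 2, WT replicate 3 or knockout replicate 2 and by limma on log2(TPM + 1). MOB1A and MOB1B, the coactivators that LATS kinases need, were both lower. MOB1A had 65.3, 73.7 and 65.8 TPM in WT and 31.3, 40.9 and 46.7 TPM in the knockout, a log2 fold change of -0.84 ± 0.12 (SE), or -0.35 with the GC-content offset. MOB1B had a log2 fold change of -0.81 ± 0.19 (SE), or -0.37 with the offset. STK3 and STK4, the genes of the MST kinases, did not pass, with log2 fold changes of 0.29 ± 0.15 (SE) and 0.21 ± 0.12 (SE). They are named after their values were seen, because with the offset they were 0.77 and 0.45 and passed, as in 2 of 15 alternative fits. With 1 sample left out, STK3 ranged from 0.18 to 0.36 and STK4 from 0.081 to 0.27. FAT1, an atypical cadherin upstream of the pathway, had 68.9, 85.0 and 95.8 TPM in WT and 42.1, 35.4 and 51.7 TPM in the knockout, and its log2 fold change of -0.82 ± 0.13 (SE) was -0.83 with the offset. The genes with the greatest rise were the polarity scaffold SCRIB (0.66 ± 0.15, SE, and 0.25 with the offset), WWC3 (0.61 ± 0.14, SE) of the KIBRA family, and FAT4 (0.58 ± 0.15, SE). The FAT4 groups overlapped in TPM, at 5.44 to 6.04 in WT and 5.84 to 10.5 in the knockout, though not in TMM-scaled counts, and its value was 0.37 without knockout replicate 3, the highest sample. The SCRIB and FAT4 calls held in 12 and the WWC3 call in 13 of 15 alternative fits, while those for MOB1A, MOB1B and FAT1 held in all 15. The median log2 fold change of the list was 0.050, against 0.030 over all tested genes, and it turned to -0.10 with the offset, to -0.051 without WT replicate 1, to -0.036 without knockout replicate 3, to -0.019 with library size alone and to -0.15 on log2(TPM + 1), a scale on which the median of all tested genes was itself -0.083.

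Of 8 TEAD and VGLL genes, 6 were tested, and 3 were higher and 2 lower by the same test, beside the same 19.8% and 19.5% of all tested genes; VGLL1 and VGLL2 were at or near 0. Of these counts, the higher one was 1 without WT replicate 1 or WT replicate 3 and with the GC-content offset, and 0 by limma on either TPM scale (2 at an unadjusted p under 0.05; DESeq2 called 3), and the lower one was 1 without WT replicate 2 or knockout replicate 2. TEAD1 was lower, at 43.8, 43.6 and 42.9 TPM in WT and 23.0, 28.9 and 38.2 TPM in the knockout, with a log2 fold change of -0.49 ± 0.14 (SE) and an adjusted p of 0.0191 in edgeR. TEAD2 (0.52 ± 0.14, SE, and 0.29 with the GC-content offset) and TEAD3 (0.83 ± 0.17, SE) were higher, and the TEAD2 call held in 9 of 15 alternative fits, those for TEAD1 and TEAD3 in 13. The TEAD2 groups overlapped in TPM, at 11.5 to 14.2 in WT and 14.1 to 18.1 in the knockout, though not in TMM-scaled counts. TEAD4 had 39.6 to 48.3 TPM in WT and 37.3 to 45.7 TPM in the knockout, with a log2 fold change of 0.079 ± 0.14 (SE) that was -0.22 with the GC-content offset, where it passed as lower, the only one of 15 alternative fits in which it passed. The direction of TEAD1 thus differed from that of TEAD2 and TEAD3. Of the summed TPM of TEAD1, TEAD2, TEAD3 and TEAD4, TEAD1 made up 44.7%, 42.3% and 40% in WT and 25%, 31.9% and 39.2% in the knockout. After the GC-content offset, TEAD1 lay at -0.49, -0.426 and -0.165 of the WT mean on the log2 scale in the knockout replicates. TEAD4 then lay at -0.18, -0.231 and -0.239, so TEAD1 was not the lower of the pair in replicate 3. TEAD2 and TEAD3 lay above the WT mean in each knockout replicate. The strongest difference of the list was in VGLL3, a cofactor that competes with YAP for TEAD, with 5.24, 4.97 and 3.08 TPM in WT and 0.71, 0.63 and 0.55 TPM in the knockout. Its log2 fold change of -1.87 ± 0.18 (SE), adjusted p of 2.8e-05 in edgeR, was -1.41 with the offset. VGLL4, a TEAD repressor, was higher by 0.34 ± 0.11 (SE), or 0.22 with the offset, a call that held in 3 of 15 alternative fits. The list median was 0.21, with a range over the alternative fits from 0.0017 with the offset to 0.33 without a filter.

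Of 16 genes for proteins that bind angiomotins or control their turnover, 3 were higher and 5 lower, beside 19.8% and 19.5% of all tested genes, so the count of higher genes is near that of genes in general. The lower count was 2 without knockout replicate 2, 3 without WT replicate 3 and 3 by limma on either TPM scale, where 0 were called higher and 3 had an unadjusted p under 0.05 in that direction (DESeq2 called 3). Both tankyrases, enzymes that mark angiomotins for degradation, were lower. TNKS had 8.55, 7.27 and 6.71 TPM in WT and 3.26, 3.25 and 3.39 TPM in the knockout, with a log2 fold change of -0.92 ± 0.11 (SE), an adjusted p of 0.000124 in edgeR and a value of -0.77 with the GC-content offset. TNKS2 had a log2 fold change of -0.59 ± 0.13 (SE), or -0.35 with the offset. RNF146, the ubiquitin ligase that acts on tankyrase-marked proteins, had -0.15 ± 0.17 (SE), or 0.14 with the offset, and did not pass. With 1 sample left out the RNF146 value ranged from -0.26 without WT replicate 3 to -0.022 without knockout replicate 1. PATJ, a polarity scaffold that binds angiomotin, was lower at -0.58 ± 0.16 (SE), with TPM that overlapped, at 4.43 to 6.79 in WT and 3.01 to 4.78 in the knockout. Of the genes that rose, ARHGAP17 (0.61 ± 0.12, SE) and PLEKHG5 (0.72 ± 0.14, SE, and 0.39 with the offset) encode proteins that bind angiomotins. NEDD4L (0.43 ± 0.10, SE) encodes a ubiquitin ligase of the family that acts on angiomotins. The ARHGAP17 groups also overlapped in TPM, at 34.3 to 47.0 in WT and 44.1 to 63.1 in the knockout; in TMM-scaled counts neither PATJ nor ARHGAP17 did. Both tankyrase calls held in all 15 alternative fits, the ARHGAP17 call in 13, and those for PATJ, PLEKHG5 and NEDD4L in 12. The list median was -0.17, with a range over the alternative fits from -0.42 on log2(TPM + 0.1) to 0.0064 with the offset.

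A YAP/TAZ target signature of 22 genes holds 5 of the 10 genes above, and the remaining 17 were read separately. Of these, 5 were higher and 5 lower, beside 19.8% and 19.5% of all tested genes, and 7 did not pass. The count of higher genes was 3 without WT replicate 1, WT replicate 2 or knockout replicate 2, and 2 by limma on either TPM scale. F3, the coagulation initiator tissue factor, rose from 0.76, 0.23 and 0.27 TPM to 1.98, 1.73 and 3.40 TPM, a log2 fold change of 2.62 ± 0.35 (SE) from a low base. NUAK2, a kinase, had 14.2, 14.5 and 15.8 TPM in WT and 25.5, 22.6 and 25.7 TPM in the knockout (log2 fold change 0.88 ± 0.11, SE), and CCDC80, a matrix protein, was higher by 0.58 ± 0.13 (SE), although its TPM overlapped, at 7.23 to 8.58 in WT and 7.07 to 11.7 in the knockout; its TMM-scaled counts did not. DOCK5, an activator of Rac, went the other way, at 34.1, 35.9 and 34.7 TPM in WT and 12.3, 11.8 and 19.3 TPM in the knockout, a log2 fold change of -1.2 ± 0.12 (SE). IGFBP3 (-0.85 ± 0.19, SE) and CRIM1 (-0.77 ± 0.11, SE) were also lower. The calls for F3, NUAK2, DOCK5, IGFBP3 and CRIM1 held in all 15 alternative fits, and that for CCDC80 in 13. Calls over all tested genes were split between the directions as well, so the split is not read as a property of the signature. Its median log2 fold change was -0.087, with a range over the alternative fits from -0.27 on log2(TPM + 0.1) to -0.0080 without WT replicate 3.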

How the data were processed

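RNA of 3 WT and 3 DKK1-SE-KO PANC-1 samples was sequenced from stranded mRNA libraries on total RNA. For each gene and sample the deposited values are the authors' expected count and TPM; the build in the submitters' processing notes is hg38, and the aligner and counter are not given in the sources used here. The deposited table also holds the authors' mean TPM, fold ratio, log2 fold change and p-value columns, which were not used. The 10 genes and all lists were chosen with earlier results of these data known.

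Expected counts, of which 32.3% of nonzero values were not whole (tolerance 0.005), were rounded and tested with edgeR 4.0.16 (R 4.3.3; filterByExpr with a minimum count of 10, TMM, quasi-likelihood F test, no covariate, Benjamini-Hochberg over 15179 genes). The SE is the absolute log2 fold change over the root of F. Scripts were tested on simulated data. Alternatives used RLE or library size, DESeq2 1.42.0, limma 3.58.1 on log2(TPM + 1) or log2(TPM + 0.1), no filter, a replicate block, each sample left out, and, chosen after seeing the data, a GC-content offset (medians in 40 bins). GC content and positions are from GENCODE v44, which placed 99.9% of identifiers. Named from each list are the 3 called genes per direction with the greatest absolute log2 fold change and all TEAD genes. Also named are STK3, STK4 and RNF146, which were not called, and VGLL1 and VGLL2, which were not tested. Flanking genes are summarised with examples chosen after their values were seen. Protein features were not analysed here. Total counts of 16475810 to 21822314 a sample limit the precision of low genes such as AMOT.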

Additional observations from a re-analysis of the deposited data

How the results depend on the processing

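All of the 10 genes but CCN1 kept the sign of their log2 fold changes in all 15 alternative fits. AMOT ranged from 1.92 to 3.05, AMOTL1 from 0.77 to 1.06, WWTR1 from -0.88 to -0.60, LATS1 from -0.98 to -0.44 and LATS2 from 0.31 to 0.57. AMOTL2 ranged from -0.33 to -0.039, YAP1 from -0.28 to -0.041, CCN1 from -0.11 to 0.082, CCN2 from 0.081 to 0.29 and ANKRD1 from -0.57 to -0.13. The low end of AMOT came from log2(TPM + 1), a scale that understates the change of low genes. DKK1 stayed lower, from -1.53 to -1.42 with 1 sample left out.

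Without 1 sample in turn, genes called higher over all tested genes ranged from 2001 (without WT replicate 1) to 3703 (without knockout replicate 3), and genes called lower from 2055 to 3855. Other Hippo genes called higher ranged from 2 to 6 and lower from 7 to 11. For TEAD and VGLL genes the ranges were 1 to 3 and 1 to 2, for angiomotin partners 2 to 3 and 2 to 7, and for YAP/TAZ targets 3 to 6 and 4 to 6. These fits have fewer samples.

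On TPM the split of calls moved: 35.8% of calls were higher with log2(TPM + 1) and 36.2% with log2(TPM + 0.1), against 50.5% in the edgeR fit to counts, and genes called higher numbered 1491 and 1493. On both TPM scales limma called 0 other Hippo genes, 0 TEAD or VGLL genes and 0 angiomotin partners higher, with 1, 2 and 3 at an unadjusted p under 0.05, against 4, 3 and 3 by edgeR and by DESeq2. Angiomotin partners called lower numbered 3 and YAP/TAZ targets called higher 2 on both scales, and other Hippo genes called lower numbered 7 with log2(TPM + 1). By the rule of an unadjusted p under 0.05 and a log2 difference of 1.2 or more either way, 753 genes were higher and 561 lower; edgeR then gave 0 other Hippo genes and 0 angiomotin partners in either direction, 0 TEAD or VGLL genes higher and 1 lower, and 1 YAP/TAZ target higher and 1 lower. At an unadjusted p alone, 7 other Hippo genes, 3 TEAD or VGLL genes and 3 angiomotin partners were higher, and 11 other Hippo genes and 6 angiomotin partners lower. With the GC-content offset, chosen after seeing the data, 7 other Hippo genes and 1 TEAD or VGLL gene were higher. The cause of these shifts was not tested.

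With a replicate block, 2404 genes were called higher and 2577 lower, and 4906 of the 5972 calls without the block were shared. Same-numbered samples did not deviate together, with correlations of -0.095, -0.059 and -0.082, and not every sample correlated best with its own number. Pairing by number was thus not seen, but with 3 samples in each group these values cannot exclude it. With the replicate block and the GC-content offset together, 1 TEAD or VGLL gene and 3 YAP/TAZ targets were higher.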
